A study of Mus musculus with 12 samples.

Results

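The genes described here encode 9 secreted proteins of the granulation tissue matrix, namely periostin (Postn), tenascin C (Tnc), thrombospondins 1, 2 and 4 (Thbs1, Thbs2, Thbs4), osteopontin (Spp1), SPARC (Sparc), fibronectin (Fn1) and versican (Vcan). They were chosen by mouse gene symbol, matched to the Ensembl gene IDs of the deposited table, and are 9 of its 55401 genes. RNA was sequenced from mouse dermis, which is the connective tissue of skin, in a model with matched wounds of equal size. Every animal was a C57BL/6 mouse aged 6 weeks. Of the 4 groups, 2 were wild type (WT) on day 0 and day 7, and 2 were Cthrc1-/- mice on the same days. Each group had 3 biological replicates, 12 samples in all. Cthrc1 encodes a secreted collagen triple helix repeat protein. How the Cthrc1-/- allele was made, whether each replicate was a separate animal and whether day 0 dermis was unwounded are not given in the sources used here, so p-values measure the spread between these samples.

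Matricellular proteins are secreted into the extracellular matrix, where they bind cell surface receptors, growth factors and other matrix molecules and do not mainly serve as structural fibres. Several are scarce in resting adult skin and are deposited in the provisional matrix of a healing wound by fibroblasts, macrophages and other cells. Fibronectin and versican are larger matrix components of the same provisional matrix, which is later replaced by collagen.

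Levels are given as FPKM (a level scaled to gene length and library size), and differences as log2 changes fitted to the deposited counts with edgeR's quasi-likelihood test. Standard errors (SE) refer to these log2 changes. Unless another fit or test is named, each adjusted p is from that edgeR fit to all 12 samples. It was corrected by the Benjamini-Hochberg method over the 14313 genes whose FPKM averaged 1 or more. Called genes are those with an adjusted p under 0.05. All 9 members and Cthrc1 passed that filter. Total counts were 48329668 to 76938132 per sample. The label was checked against markers: all 8 fibroblast markers passed the filter, with a summed level of 384 to 6686 FPKM per library, and 5 keratinocyte markers of the epidermis summed to 2238 to 9225 FPKM, so RNA of the overlying layer was in every library. In bulk tissue, fewer cells of a type and less RNA per cell cannot be told apart.

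Cthrc1 itself (ENSMUSG00000054196, GRCm38 chromosome 15, 39076932 to 39087121) checked the genotype labels. It lay between 21.1 and 106 FPKM in the 6 WT libraries and between 0 and 0.151 FPKM in the 6 Cthrc1-/- libraries. The log2 change between genotypes was -8.90 (SE 1.06, adjusted p = 0.00941) on day 0 and -11.07 (SE 1.12, adjusted p = 0.011) on day 7. With the Cthrc1-/- groups at or near 0 these sizes are loose: leaving out 1 library gave -14.49 to -8.27 on day 0 and -12.37 to -10.49 on day 7. The day 7 call was lost without Cthrc1-/- day 7 replicate 1 (adjusted p = 0.0515) or replicate 3 (adjusted p = 0.0954), and both calls were lost when the libraries of 1 day were fitted alone (adjusted p = 0.0773 on day 0 and 0.0516 on day 7).

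A pair of libraries stood apart from their groups across these genes. WT day 7 replicate 1 held 13 times the mean Thbs1 level of the other 2 WT day 7 libraries, 6.2 times their Spp1 and 5.71 times their Tnc, while its Postn was 2.83 times and its Thbs2 2.04 times lower than theirs. The 4 neutrophil markers of that library summed to 4809 FPKM, against 739 and 38.6 FPKM in WT day 7 replicates 2 and 3. Cthrc1-/- day 0 replicate 3 had the lowest Thbs2, Thbs4, Sparc, Fn1, Postn and Thbs1 of its group, between 1.64 and 7.37 times below the mean of the other 2. Its fibroblast markers summed to 384 FPKM, against 2569 and 1405 FPKM in replicates 1 and 2. Log2 changes that moved most without either library are given both ways.

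Sparc was the most abundant member in each of the 4 groups and Vcan the least. Sparc, which encodes a collagen-binding glycoprotein, averaged 2088 ± 292 FPKM (SD, n = 3) in WT day 0, above 99.8% of the tested genes. It made up between 55.1% and 92.2% of the summed FPKM of the 9 members in every library, and its range did not overlap that of Postn, the next gene, in any group. In WT day 0 the order of mean levels was Sparc, Postn, Thbs1, Thbs2, Thbs4, Fn1, Tnc, Spp1 and Vcan. The ranges of neighbours overlapped from Postn down to Fn1 and between Tnc and Spp1, but not between Fn1 and Tnc or between Spp1 and Vcan. In WT day 7 Tnc took the third place by its mean of 178 FPKM, but its mean over replicates 2 and 3 was 69.2 FPKM, below the 80.6 FPKM of Thbs2, and the ranges of all neighbours from Postn down to Thbs4 overlapped there. Without Sparc, the other 8 members summed to 205 to 337 FPKM in WT day 0, and in WT day 7 to 1245 FPKM in replicate 1 and 651 and 445 FPKM in replicates 2 and 3. The same sums were 91.8 to 224 FPKM in Cthrc1-/- day 0 and 395 to 542 FPKM in Cthrc1-/- day 7, so in both genotypes each day 7 library exceeded each day 0 library. Taken singly, 29.8% of tested genes in WT and 21.5% in Cthrc1-/- mice lay higher in this way. Tnc and Thbs1 supplied 395 and 369 FPKM of the sum in WT day 7 replicate 1.

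**Figure D1:**
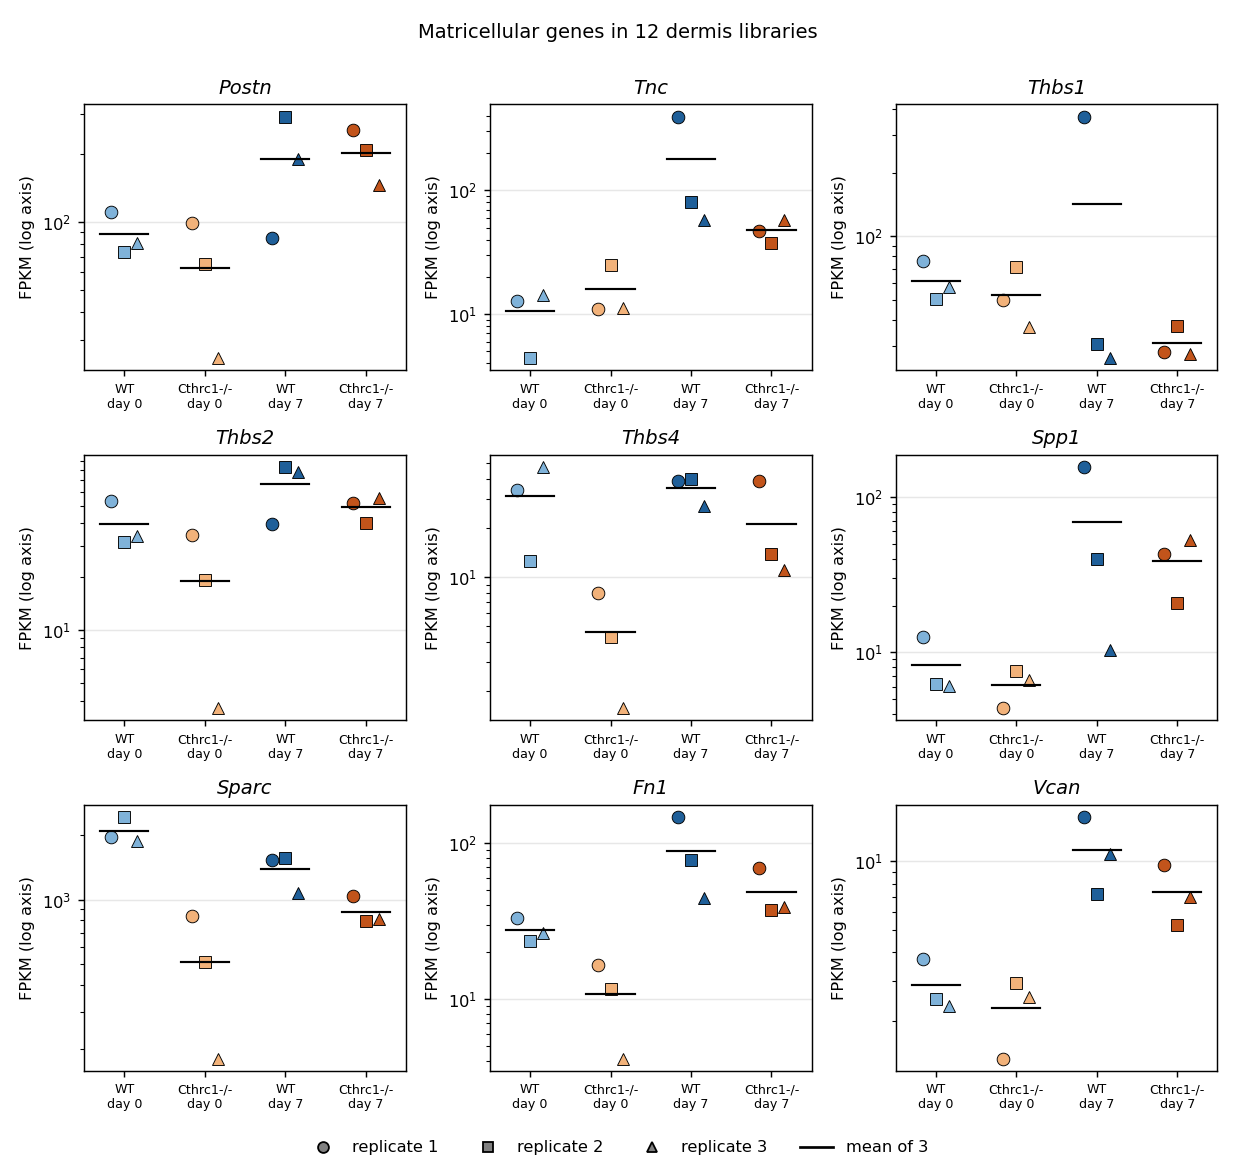
FPKM of the 9 members in each of the 12 libraries (log axes). Circles, squares and triangles mark replicates 1, 2 and 3, and a bar marks the mean of 3. WT day 7 replicate 1 is the highest of its group for Thbs1 (369 FPKM), Tnc (395 FPKM) and Spp1 (156 FPKM) and the lowest for Postn (85.2 FPKM).

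In WT dermis Tnc, Spp1 and Vcan were called higher on day 7 than on day 0, by 15.8, 7.77 and 3.5 fold, and no member was called lower. Without WT day 7 replicate 1 the log2 change of Tnc was 2.57 in place of 3.98, that of Spp1 1.47 in place of 2.96 and that of Vcan 1.50 in place of 1.81. Tnc and Vcan were still called (adjusted p = 0.0189 and 0.0343) and Spp1 was not. In that fit Thbs1 was called lower on day 7 (log2 change -1.25, adjusted p = 0.0348), and 1195 of 14313 genes were called. In the reported fit, the 3 of 9 members called higher compare with 6.04% of all tested genes called higher (13.1% called in either direction). The median log2 change of the 9 members was 1.14, beside -0.002 over all tested genes. FPKM ranges of the days did not overlap, with day 7 higher, for Tnc, Fn1 and Vcan, as for 29.8% of all tested genes. For Sparc the ranges did not overlap with day 7 lower, as for 14.1% of tested genes.

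The promoters of the 3 genes that rose, and that of Thbs4, which differed between genotypes on day 0, are shown because these members were called. Sparc was called on day 0 as well, but its window lies 3103 bases from the GENCODE start of the gene and 238 of its bases are annotated exon, so it is counted and not shown. Each window is the 250 bases before the RefSeq transcription start on GRCm38.p6, read 5′ to 3′ on the gene's strand: Tnc at chr4:64047016-64047265, minus strand; Vcan at chr13:89742513-89742762, minus strand; Spp1 at chr5:104434861-104435110, plus strand; Thbs4 at chr13:92794819-92795068, minus strand. Capitals mark matches, on either strand, to the TATA box TATAAA, the CCAAT box CCAAT, the GC box GGGCGG, the AP-1 site TGANTCA and the SMAD-binding letters CAGACA.
Tnc: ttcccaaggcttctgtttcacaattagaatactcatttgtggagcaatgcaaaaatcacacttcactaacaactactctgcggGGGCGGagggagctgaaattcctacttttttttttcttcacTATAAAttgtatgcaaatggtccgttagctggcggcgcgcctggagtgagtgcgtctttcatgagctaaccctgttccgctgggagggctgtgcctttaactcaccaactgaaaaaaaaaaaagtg
Vcan: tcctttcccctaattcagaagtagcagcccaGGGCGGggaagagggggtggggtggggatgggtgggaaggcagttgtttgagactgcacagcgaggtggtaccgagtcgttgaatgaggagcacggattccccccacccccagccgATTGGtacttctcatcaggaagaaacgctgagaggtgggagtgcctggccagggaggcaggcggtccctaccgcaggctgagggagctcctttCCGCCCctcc
Spp1: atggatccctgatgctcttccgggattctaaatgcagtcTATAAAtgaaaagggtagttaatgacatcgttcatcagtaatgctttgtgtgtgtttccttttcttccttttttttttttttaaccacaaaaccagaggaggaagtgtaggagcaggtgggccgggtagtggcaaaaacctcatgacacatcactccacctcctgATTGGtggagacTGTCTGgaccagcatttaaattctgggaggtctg
Thbs4: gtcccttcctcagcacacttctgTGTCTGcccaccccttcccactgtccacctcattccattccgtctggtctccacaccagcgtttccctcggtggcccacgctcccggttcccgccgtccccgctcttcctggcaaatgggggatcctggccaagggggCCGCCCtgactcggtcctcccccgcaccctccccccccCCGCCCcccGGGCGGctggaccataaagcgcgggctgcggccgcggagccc
Windows were matched for 7 of the 9 members, with none for Thbs1 and Fn1. No match overlapped another. The letters of the TATA box stood in 4 of the 7 windows (Postn, Tnc, Thbs2 and Spp1), against 12.4% of 32851 windows of the same length. In Postn they lay 26 to 21 bases before the start. In the others they lay further off, 126 to 121 bases before it in Tnc, 211 to 206 in Spp1 and 126 to 121 on the opposite strand in Thbs2. The SMAD-binding letters stood in 4 of the 7 (Thbs2, Thbs4, Spp1 and the largely exonic window of Sparc), against 17.1% of windows. The CCAAT box stood in 3 of 7, against 33.8% of windows. The GC box stood in 3 of 7, against 32.7% of windows, and the Thbs4 window held it 3 times. The AP-1 site stood in none of the 7 and in 6.75% of windows. The 3 genes that rose had no motif of this search in common: the Tnc window held a TATA box and a GC box, the Vcan window a CCAAT box and GC boxes, and the Spp1 window a TATA box, a CCAAT box and the SMAD-binding letters. These are letter matches and not measured binding.

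Tnc (ENSMUSG00000028364, chromosome 4, 63959785 to 64047015, minus strand) encodes a hexameric glycoprotein that modulates cell adhesion to fibronectin. Its FPKM were 12.8, 4.42 and 14.3 in WT day 0 and 395, 80.6 and 57.8 in WT day 7. All 3 day 7 libraries exceeded all 3 day 0 libraries. The log2 change was 3.98 (SE 0.831, adjusted p = 0.016). Vcan (ENSMUSG00000021614, chromosome 13, 89655312 to 89742509, minus strand) encodes a hyaluronan-binding chondroitin sulfate proteoglycan. Its FPKM were 3.75, 2.51 and 2.34 in WT day 0 and 15.6, 7.2 and 10.8 in WT day 7, with no overlap. The log2 change was 1.81 (SE 0.386, adjusted p = 0.0172). Spp1 (ENSMUSG00000029304, chromosome 5, 104435118 to 104441050, plus strand) encodes an integrin and CD44 ligand made by macrophages among other cells. Its FPKM were 12.5, 6.3 and 6.11 in WT day 0 and 156, 39.8 and 10.4 in WT day 7. The days overlapped, because WT day 7 replicate 3 lay below WT day 0 replicate 1. The log2 change was 2.96 (SE 0.848, adjusted p = 0.0463).

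The Spp1 call held in only 2 of 12 fits that left out 1 library, those without Cthrc1-/- day 0 replicate 3 and without WT day 7 replicate 3, and its adjusted p without WT day 7 replicate 1 was 0.141. The Tnc call was lost when any 1 of the 3 WT day 0 libraries was left out, and the Vcan call without WT day 0 replicate 2 or 3. Those fits called 688, 527 and 570 of 14313 genes without replicates 1, 2 and 3, against 1880 in the reported fit. Fitting the WT libraries alone, where 2102 genes were called, left Vcan as the 1 called member. Beside these values, the 4 neutrophil markers were all called higher in WT day 7, with summed FPKM of 5.81 to 10.5 on day 0 and 38.6 to 4809 on day 7. The 5 macrophage markers summed to 124 to 136 FPKM on day 0 and 137 to 438 FPKM on day 7, with none called. All 8 hair follicle markers were called higher as well, from 4.99 to 8.25 FPKM summed on day 0 to 1638 to 3823 FPKM on day 7, and Krt25 and Krt73 among them were at 0 in WT day 0 replicate 1. The part of these cells in the members' changes was not tested.

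The other 6 members were not called in WT. Fn1 (ENSMUSG00000026193, chromosome 1, 71585520 to 71653200, minus strand), the adhesive glycoprotein of the provisional matrix, measured 33.2, 23.5 and 26.4 FPKM on day 0 and 146, 77.6 and 44.2 FPKM on day 7. Each day 7 library was higher, and the log2 change was 1.55 (SE 0.576, adjusted p = 0.0946); it was called by DESeq2 (adjusted p = 0.0215), which called 24.8% of tested genes, and by edgeR without Cthrc1-/- day 0 replicate 3 (adjusted p = 0.0432), but not without WT day 7 replicate 1 (adjusted p = 0.246). Postn (ENSMUSG00000027750, chromosome 3, 54361109 to 54391037, plus strand) encodes an integrin ligand that takes part in collagen cross-linking. It measured 111, 73.6 and 80.9 FPKM on day 0 and 85.2, 292 and 190 FPKM on day 7. WT day 7 replicate 1 fell within the day 0 range while replicates 2 and 3 lay above it, and the log2 change was 0.88 (SE 0.517, adjusted p = 0.27). Sparc (ENSMUSG00000018593, chromosome 11, 55394500 to 55423183, minus strand) measured 1964, 2421 and 1878 FPKM on day 0 and 1528, 1564 and 1068 FPKM on day 7. Every day 7 value lay below every day 0 value, with a log2 change of -0.76 (SE 0.462, adjusted p = 0.282).

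The 3 thrombospondins did not follow a common course in WT. Thbs1 (ENSMUSG00000040152, chromosome 2, 118111876 to 118127133, plus strand) encodes a trimeric CD36 and CD47 ligand that can activate latent TGF-beta and restrains blood vessel growth. Its FPKM were 76.3, 50.4 and 57.1 on day 0 and 369, 30.6 and 26.4 on day 7. Replicate 1 of day 7 lay above all day 0 libraries and replicates 2 and 3 below all of them. With it the log2 change was 1.14 (SE 0.876, adjusted p = 0.396), and without it the log2 change was -1.25 and was called (adjusted p = 0.0348). Thbs2 (ENSMUSG00000023885, chromosome 17, 14665500 to 14694235, minus strand), a second trimeric thrombospondin, measured 53.4, 31.5 and 33.8 FPKM on day 0 and 39.6, 83.4 and 77.9 FPKM on day 7. Here replicate 1 of day 7 was the lowest of its group and inside the day 0 range, and the log2 change was 0.55 (SE 0.617, adjusted p = 0.577). Thbs4 (ENSMUSG00000021702, chromosome 13, 92751590 to 92794818, minus strand), a pentameric thrombospondin of tendon, muscle and other matrices, measured 34.2, 12.5 and 47.4 FPKM on day 0 and 39.1, 40 and 27.1 FPKM on day 7. These ranges overlapped, and the log2 change was 0.00 (SE 0.676, adjusted p = 0.999).

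Within a library, the ratio of Thbs1 to Thbs2 FPKM needs no scaling between libraries. It was 1.43, 1.6 and 1.69 in WT day 0 and 9.32, 0.367 and 0.339 in WT day 7. Thus Thbs2 exceeded Thbs1 in WT day 7 replicates 2 and 3 only, among the 6 WT libraries. In Cthrc1-/- day 0 the ratio was 1.46, 3.73 and 10.2, and in Cthrc1-/- day 7 it was 0.541, 0.925 and 0.498. All 3 Cthrc1-/- day 7 libraries had more Thbs2 than Thbs1 and all 3 Cthrc1-/- day 0 libraries the reverse. The ratio of Tnc to Postn was 4.64 in WT day 7 replicate 1 and between 0.0601 and 0.454 in the other 11 libraries.

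In Cthrc1-/- dermis no member was called between day 0 and day 7, where 1.46% of tested genes were called. At an unadjusted p under 0.05 there were 5 members (Postn, Thbs4, Spp1, Fn1 and Vcan), against 18.1% of tested genes; DESeq2 called the same 5, with 9.84% of tested genes called, and limma on log2(FPKM + 1) called 2 of them, Fn1 and Vcan, with 5.41% of tested genes called. Day 7 ranges lay above day 0 ranges without overlap for 7 of 9 members, against 21.5% of tested genes, the exceptions being Sparc and Thbs1. The median log2 change of the 9 members was 1.50, beside -0.013 over all tested genes. Without WT day 7 replicate 1 in the shared fit, Spp1, Fn1 and Vcan were called, where 911 of 14313 genes were called against 209 in the reported fit. Without Cthrc1-/- day 0 replicate 3 no member was called, where 522 of 14313 genes were called. The log2 change was then 0.67 for Thbs2 in place of 1.17, 0.18 for Sparc in place of 0.60 and 1.10 for Postn in place of 1.50. It was 1.56 for Fn1 in place of 1.97 and 1.59 for Thbs4 in place of 2.02.

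Vcan came nearest to the threshold in Cthrc1-/- mice. Its FPKM were 1.37, 2.93 and 2.55 on day 0 and 9.67, 5.28 and 7.01 on day 7, with no overlap and a log2 change of 1.53 (SE 0.383, adjusted p = 0.0772). Fn1 measured 16.6, 11.7 and 4.16 FPKM on day 0 and 68.8, 37.4 and 38.9 FPKM on day 7, with a log2 change of 1.97 (SE 0.584, adjusted p = 0.114). Spp1 measured 4.36, 7.59 and 6.59 FPKM on day 0 and 42.9, 20.9 and 52.5 FPKM on day 7, a log2 change of 2.49 (SE 0.833, adjusted p = 0.151). In Spp1, unlike in WT, the Cthrc1-/- days did not overlap. Postn measured 98.5, 64.9 and 25 FPKM on day 0 and 254, 208 and 145 FPKM on day 7 (log2 change 1.50, SE 0.524, adjusted p = 0.166). Tnc measured 11.1, 25.1 and 11.3 FPKM on day 0 and 47.2, 37.6 and 57.5 FPKM on day 7 (log2 change 1.41, SE 0.751, adjusted p = 0.353). Sparc had overlapping days, at 835, 512 and 181 FPKM on day 0 and 1040, 790 and 808 FPKM on day 7 (log2 change 0.60, SE 0.461, adjusted p = 0.537).

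Among the thrombospondins of the Cthrc1-/- mice, Thbs2 measured 34.3, 19.1 and 3.62 FPKM on day 0 and 52.1, 40.3 and 55.4 FPKM on day 7 (log2 change 1.17, SE 0.624, adjusted p = 0.353). Thbs4 measured 7.96, 4.28 and 1.57 FPKM on day 0 and 38.9, 13.9 and 11 FPKM on day 7 (log2 change 2.02, SE 0.703, adjusted p = 0.166). Neither gene's days overlapped. Thbs1 had overlapping days, at 50, 71.2 and 37 FPKM on day 0 and 28.2, 37.3 and 27.6 FPKM on day 7 (log2 change -0.93, SE 0.873, adjusted p = 0.618).

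Summed cell markers were higher on day 7 for several cell types. In Cthrc1-/- mice the summed FPKM of the 8 fibroblast markers lay between 384 and 2569 on day 0 and between 2317 and 3736 on day 7, with none called. The 5 macrophage markers summed to between 42.5 and 97.4 FPKM on day 0 and between 174 and 220 FPKM on day 7, and the 4 neutrophil markers to between 22.1 and 88 FPKM and between 379 and 1154 FPKM, again with none called. The 4 endothelial markers summed to between 14.1 and 37.7 FPKM on day 0 and between 77.3 and 131 FPKM on day 7, with 1 called higher. Per summed fibroblast marker level, Thbs2, Thbs4 and Fn1 were higher and Thbs1 was lower in all 3 day 7 libraries than in all 3 day 0 libraries. The other 5 members overlapped, and no share of all tested genes was computed on that scale. Collagen genes were the largest terms of the marker sum, and no scale without them was computed. The part of these cells in the members' day 7 levels was not tested.

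**Figure D2:**
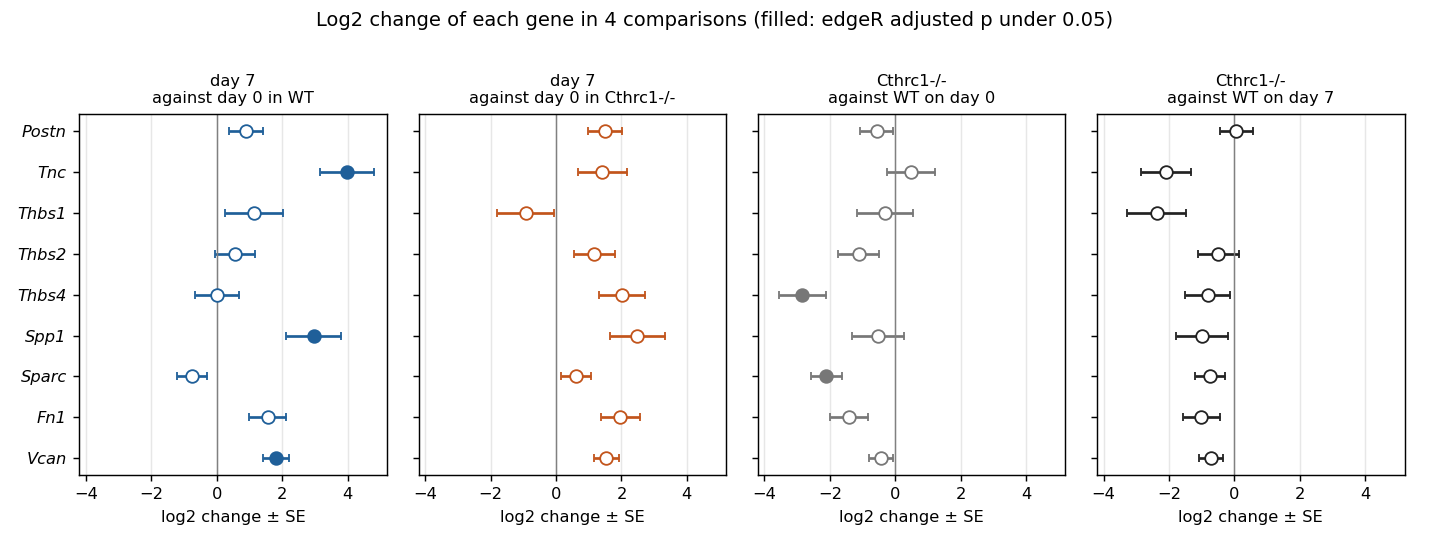
Log2 change of each member, with its standard error, in the day and genotype comparisons, from the 12-sample edgeR fit; filled points have an adjusted p under 0.05. Tnc, Spp1 and Vcan are filled for WT day 7 against day 0, Sparc and Thbs4 for genotype on day 0, and no member is filled for genotype on day 7.

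On day 0, Sparc and Thbs4 were called lower in Cthrc1-/- dermis, by 4.3 and 7.16 fold, and no member was called higher. These 2 of 9 members called lower compare with 2.26% of tested genes called lower (5.78% in either direction). Unadjusted p was under 0.05 for 3 members, the third being Fn1, against 28.4% of tested genes. Ranges did not overlap, with Cthrc1-/- lower, for the same 3 genes, as for 19.8% of tested genes. The median log2 change of the members was -0.57, beside -0.047 over all tested genes.

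Sparc measured 1964, 2421 and 1878 FPKM in WT day 0 and 835, 512 and 181 FPKM in Cthrc1-/- day 0. The lowest WT library exceeded the highest Cthrc1-/- library, and the log2 change was -2.11 (SE 0.478, adjusted p = 0.04). Thbs4 measured 34.2, 12.5 and 47.4 FPKM in WT and 7.96, 4.28 and 1.57 FPKM in Cthrc1-/- mice, also without overlap, with a log2 change of -2.84 (SE 0.726, adjusted p = 0.0496). Fn1 was the third gene without overlap, at 33.2, 23.5 and 26.4 FPKM in WT and 16.6, 11.7 and 4.16 FPKM in Cthrc1-/- mice, and its log2 change of -1.42 (SE 0.575, adjusted p = 0.139) was not called. The other 6 members overlapped between genotypes, with log2 changes from -1.12 for Thbs2 to 0.49 for Tnc and adjusted p from 0.261 to 0.84. Without Cthrc1-/- day 0 replicate 3, Sparc was still called (log2 change -1.68, adjusted p = 0.0418), while the Thbs4 log2 change was -2.41 (adjusted p = 0.109). Both calls were lost in a fit of the day 0 libraries alone, which called 19 of 14313 genes against 827 in the reported fit. Of the 12 fits that left out 1 library, Sparc was called in 3, those without Cthrc1-/- day 0 replicate 1 or 3 or WT day 7 replicate 1. Thbs4 was called in 2, those without Cthrc1-/- day 0 replicate 1 or WT day 7 replicate 1. These 12 fits called 18 to 2146 genes.

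Fibroblast markers differed alongside. The 8 markers summed to 5731, 6686 and 5084 FPKM in WT day 0 and 2569, 1405 and 384 FPKM in Cthrc1-/- day 0, and 1 of the 8 was called lower. As a percentage of that sum, Sparc was 34.3, 36.2 and 36.9 in WT and 32.5, 36.4 and 47.2 in Cthrc1-/- day 0, so the genotypes overlapped on this scale. Thbs4 overlapped too, at 0.188 to 0.932% in WT and 0.304 to 0.409% in Cthrc1-/- mice. On the same scale Postn, Tnc, Thbs1, Thbs2 and Fn1 were higher in all 3 Cthrc1-/- libraries than in all 3 WT libraries. A gene that fell less than the marker sum comes out higher on this scale, and the share of all tested genes that did so was not computed. Collagen genes were the largest terms of the sum, with Col1a1, Col3a1 and Col1a2 at 2410, 1226 and 1183 FPKM in WT day 0 replicate 1. Col1a1 measured 2410, 3122 and 2211 FPKM in WT day 0 and 1033, 555 and 136 FPKM in Cthrc1-/- day 0. Markers outside the collagens fell less, Pdgfra from 7.4, 6.78 and 6.46 to 5.84, 4.28 and 2.04 FPKM. Lum went from 315, 275 and 267 to 168, 87.7 and 27 FPKM. The results per marker sum, that of Sparc included, therefore hold for this collagen-weighted scale only. No scale without the collagens was computed. Hair follicle markers moved the other way, with 8 of 8 called higher and sums of 4.99 to 8.25 FPKM in WT and 222 to 11380 FPKM in Cthrc1-/- day 0. Skeletal muscle markers, a tissue in which Thbs4 is also made, summed to 251 to 584 FPKM in WT and 56.5 to 221 FPKM in Cthrc1-/- mice, with none of 6 called. Pericyte and myofibroblast markers summed to 261 to 284 FPKM in WT and 87.6 to 177 FPKM in Cthrc1-/- mice, with 2 of 4 called lower. Adipocyte sums were 61.7 to 87.9 and 5.86 to 37.2 FPKM, macrophage sums 124 to 136 and 42.5 to 97.4 FPKM. Endothelial sums were 47.1 to 47.9 and 14.1 to 37.7 FPKM, and neutrophil sums, higher in Cthrc1-/- mice, 5.81 to 10.5 and 22.1 to 88 FPKM. No marker of these 4 lists was called. What part these tissue differences have in the Sparc and Thbs4 levels was not tested.

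**Figure D3:**
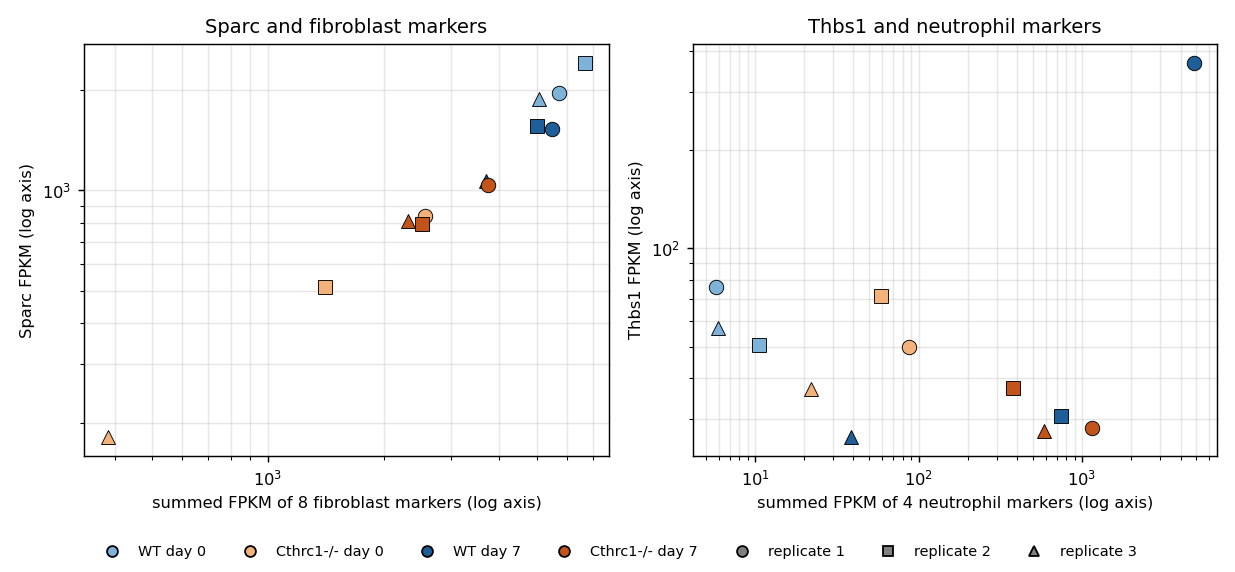
Sparc FPKM against the summed FPKM of 8 fibroblast markers, and Thbs1 FPKM against the summed FPKM of 4 neutrophil markers, 1 point per library. Cthrc1-/- day 0 replicate 3 is lowest on both fibroblast plot axes (384 and 181 FPKM), and WT day 7 replicate 1 is highest on both neutrophil plot axes (4809 and 369 FPKM).

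On day 7 edgeR called no member between genotypes, nor did DESeq2 or limma; the share of tested genes called was 0.021% with edgeR, 0.433% with DESeq2 and 0.0559% with limma on log2(FPKM + 1). At an unadjusted p under 0.05 there were 2 members, Tnc and Thbs1, against 5.46% of tested genes. Ranges lay lower in Cthrc1-/- mice without overlap for Tnc and Sparc, as for 2.67% of tested genes, and the median log2 change of the members was -0.82, beside -0.005 over all tested genes. Tnc measured 395, 80.6 and 57.8 FPKM in WT day 7 and 47.2, 37.6 and 57.5 FPKM in Cthrc1-/- day 7, so that WT replicate 3 and Cthrc1-/- replicate 3 were nearly level. Its log2 change was -2.08 (SE 0.766, adjusted p = 0.907), and -0.57 without WT day 7 replicate 1. Sparc measured 1528, 1564 and 1068 FPKM in WT and 1040, 790 and 808 FPKM in Cthrc1-/- mice, with a log2 change of -0.75 (SE 0.462, adjusted p = 0.957). Thbs1 had a log2 change of -2.38 (SE 0.91, adjusted p = 0.907) with WT replicate 1 at 369 FPKM, and without that library the log2 change was 0.10. Spp1 (adjusted p = 0.975) likewise lay on the other side of 0, at 0.59, when that library was left out. Postn had means of 189 ± 103 FPKM in WT and 202 ± 54.5 FPKM in Cthrc1-/- mice (SD, n = 3), with a log2 change of 0.06 (SE 0.513, adjusted p = 0.998).

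Whether the day 7 against day 0 difference itself depended on genotype was tested by the interaction term. No member was called by edgeR, DESeq2 or limma, which called 0.014%, 4.76% and 0.0279% of tested genes, and at an unadjusted p under 0.05 there was 1 member, Tnc, against 15.1% of tested genes. The Tnc term was -2.57 (SE 1.06, adjusted p = 0.298), a day difference of 3.98 in WT beside 1.41 in Cthrc1-/- mice. Without WT day 7 replicate 1 the term was -1.11, from 2.57 in WT beside 1.46 in Cthrc1-/- mice. Sparc (1.36, SE 0.652, adjusted p = 0.356) and Thbs4 (2.02, SE 0.967, adjusted p = 0.355) had terms of the opposite sign. For Sparc the day differences were -0.76 in WT and 0.60 in Cthrc1-/- mice. So the calls of Tnc, Spp1 and Vcan in WT, and of none in Cthrc1-/- mice, were not shown to differ between genotypes. The WT comparison of days and the day 0 comparison of genotypes share the 3 WT day 0 libraries.

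The members were set beside Cthrc1 in the 6 WT libraries. Cthrc1 measured 27, 21.8 and 21.1 FPKM in WT day 0 and 106, 95.5 and 74 FPKM in WT day 7, without overlap. Its log2 change was 1.81 (SE 0.716, adjusted p = 0.112), and in a fit of the WT libraries alone the adjusted p was 0.0089. Vcan, also at 1.81, came nearest to this, followed by Fn1 (1.55) and Thbs1 (1.14); Sparc (-0.76) and Tnc (3.98) lay furthest from it. Without WT day 7 replicate 1, Vcan (1.50) and Spp1 (1.47) came nearest to Cthrc1 (1.72), and Thbs1 (-1.25) was far from it.

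The ratio of each member's FPKM to that of Cthrc1 was taken in each WT library and its log2 compared between days with an exact two-sided permutation test. With 3 libraries against 3 the smallest p this test can give is 0.1, so no ratio could pass 0.05, and the 9 p-values were adjusted by Benjamini-Hochberg. Over all 6 libraries Sparc had the widest shift, from 72.8, 111 and 89 times Cthrc1 in WT day 0 to 14.4, 16.4 and 14.4 times in WT day 7. The difference in mean log2 ratio was -2.57 (exact permutation p = 0.1, adjusted p = 0.18). Thbs1 stood at 2.83, 2.3 and 2.71 times Cthrc1 on day 0 and 3.48, 0.32 and 0.357 times on day 7, a difference of -1.82 (exact permutation p = 0.4). Without WT day 7 replicate 1, whose ratio was the highest of the 6, the Thbs1 difference was -2.94, wider than the -2.54 of Sparc.

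Postn, Thbs2 and Thbs4 also had lower ratios in all 3 day 7 libraries than in all 3 day 0 libraries. Cthrc1 itself was higher in every WT day 7 library, so a gene that rose less comes out lower on this scale. The share of all tested genes that did so was not computed. Postn went from 4.13, 3.37 and 3.83 times Cthrc1 to 0.803, 3.06 and 2.57 times. Thbs2 went from 1.98, 1.44 and 1.6 times to 0.373, 0.873 and 1.05 times, and Thbs4 from 1.27, 0.574 and 2.25 times to 0.368, 0.419 and 0.366 times. Tnc was the 1 member with a higher ratio in every day 7 library, from 0.473, 0.202 and 0.678 times to 3.72, 0.844 and 0.781 times. For each of these 4 genes the exact permutation p was 0.1 (adjusted p = 0.18). The ratios of the other 4 members overlapped between days. Vcan had the smallest difference, at 0.139, 0.115 and 0.111 times Cthrc1 on day 0 and 0.147, 0.0754 and 0.146 times on day 7, a difference in mean log2 ratio of -0.04 (exact permutation p = 1). Fn1 stood at 1.23, 1.08 and 1.25 times on day 0 and 1.37, 0.813 and 0.598 times on day 7 (difference -0.44, exact permutation p = 0.4).

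**Figure D4:**
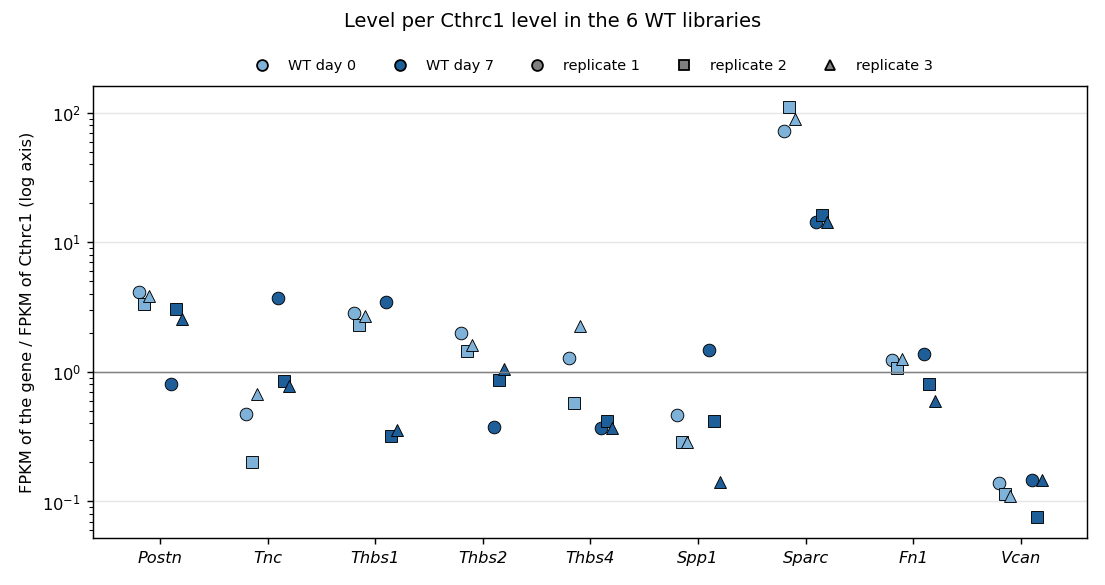
Ratio of each member's FPKM to Cthrc1 FPKM in the 3 WT day 0 and 3 WT day 7 libraries (log axis), 1 point per library. Sparc lies between 72.8 and 111 on day 0 and between 14.4 and 16.4 on day 7, and Vcan between 0.0754 and 0.147 on both days.

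Other matricellular and provisional matrix genes gave mixed calls, with 20 of 26 listed genes passing the filter. In WT, 3 of the 20 rose and 3 fell by day 7, against 864 and 1016 of 14313 tested genes. The median log2 change of the 20 was -0.31. Tnn, encoding tenascin N (also called tenascin W), rose by 3.51 on the log2 scale (adjusted p = 0.00657), from 2.26 ± 0.933 to 29.7 ± 8.73 FPKM (SD, n = 3). Ccn4, a CCN family protein induced by Wnt signalling, rose by 2.12 (adjusted p = 0.00826), and the SPARC-related Smoc1 had a log2 change of -2.89 (adjusted p = 0.00616). In Cthrc1-/- mice 4 of these genes rose and 1 fell, against 123 and 86 of 14313 tested genes. These calls again included Tnn (3.69, adjusted p = 0.0216), Ccn4 (2.55, adjusted p = 0.0216) and Smoc1 (-2.39, adjusted p = 0.0347). These 3 genes were called by edgeR in both genotypes, and whether they differ in this from the 9 members was not tested. On day 0, Ccn4 (-1.55, adjusted p = 0.0429) and Smoc2 (-1.54, adjusted p = 0.04) were lower in Cthrc1-/- dermis, where 2.26% of tested genes were called lower. On day 7 none of the 20 was called, where 0.021% of tested genes were called.

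Of 17 measured receptor genes, 1 rose and 1 fell between days in each genotype. Of all tested genes, 13.1% were called between days in WT and 1.46% in Cthrc1-/- mice. Stab1, a scavenger receptor that takes up Sparc, rose in WT (log2 change 1.69, adjusted p = 0.0278) and in Cthrc1-/- mice (2.08, adjusted p = 0.044). The syndecans, fibronectin co-receptors, supplied the falls, Sdc4 in WT (-1.08, adjusted p = 0.0295) and Sdc1 in Cthrc1-/- mice (-0.81, adjusted p = 0.0401). On day 0 the integrin subunit Itgb5 was lower in Cthrc1-/- dermis (-0.64, adjusted p = 0.0235) and Sdc1 higher (0.62, adjusted p = 0.0478), where 5.78% of tested genes were called. Of 10 hyaluronan and versican partners, 3 rose in WT, against 6.04% of tested genes called higher. They were the versican-cleaving proteases Adamts15 (1.99, adjusted p = 0.0136) and Adamts9 (1.91, adjusted p = 0.024), and the hyaluronan synthase Has3 (1.75, adjusted p = 0.00657). None of the 10 was called between days in Cthrc1-/- mice, and on day 0 Has3 was higher in Cthrc1-/- dermis (1.08, adjusted p = 0.0496). None of 10 TGF-beta ligands, receptors and targets was called by edgeR in any of the 5 tests, with 1 to 3 of them at an unadjusted p under 0.05 in each.

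The 9 members varied together only in part. Over the 12 libraries, which fall into 4 groups and are therefore not independent, the Pearson r of a member's log2 level with the mean standardized profile of the other 8 ran from 0.171 for Thbs1 to 0.991 for Fn1. The other 7 lay between 0.558 for Sparc and 0.799 for Thbs4. In an alternative chosen after seeing the data, without WT day 7 replicate 1, r was -0.484 for Thbs1, 0.916 for Postn and 0.914 for Thbs2, and without Cthrc1-/- day 0 replicate 3 it was 0.206 for Sparc and 0.408 for Postn. By pairs, r was highest for Thbs2 with Postn and for Vcan with Tnc (both 0.887) and lowest for Postn with Thbs1 (-0.353). Among 7218 other genes, those closest to the members' mean profile were Loxl1, a lysyl oxidase family enzyme (r = 0.985), Cd248, a surface protein of stromal cells (0.983), Fstl1, a secreted SPARC-related glycoprotein (0.983), Mfap5, a microfibril protein (0.983), and P3h1, a collagen prolyl hydroxylase (0.981). On day 0 the Loxl1 mean was 20.3 FPKM (WT) and 9.43 FPKM (Cthrc1-/-), and on day 7 the means were 59.8 and 41.1 FPKM in that order.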

How the data were processed

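Per the submitters' processing notes, cutadapt 1.9, HISAT2 2.0.4, UMI-tools, StringTie 1.3.4d, DESeq2 and edgeR were used with GRCm38; their roles are not stated there. Strand-specific poly(A) libraries carried molecular identifiers, per the labels' protocols, and whether counts were collapsed on them is not given in the sources used here. The deposited table holds whole-number counts and FPKM per gene and sample, both made by the authors. A deposited FPKM of 0.0001 at a count of 0 was set to 0. Counts at multiples of 4 were overrepresented, so division by 4 was an alternative.

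Symbols and coordinates came from GENCODE M21 (GRCm38) by gene ID, naming 55141 of 55401 genes, and promoter windows from RefSeq (GRCm38.p6). edgeR 4.0.16 (glmQLFit, glmQLFTest, TMM, two-sided) in R 4.3.3 was fitted to the counts of all 12 samples with 1 mean per group. Each standard error is the size of the log2 change over the root of its F statistic. The procedure was tested on simulated counts. The members and lists were chosen with earlier results of these data known. Named genes were all members, Cthrc1, up to 4 called genes of a list by size of change (otherwise the 2 with the smallest p), from which examples are given, and the 5 genes most like the members' mean profile. Alternatives used DESeq2 1.42.0, limma 3.58.1 on log2(FPKM + 1) and log2(FPKM + 0.1), other scalings and filters, the compared groups alone, a replicate block and leaving out each library.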

Additional observations from a re-analysis of the deposited data

How the results depend on the processing

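Of 981 member log2 changes recomputed under alternatives, 894 kept their direction and side of the threshold and 22 changed direction. Changes that were not called as reported and stayed uncalled count among those kept. The calls themselves held less often, each being refitted without 1 library 12 times and in 10 other ways. They were lost 16 times for Spp1, 4 for Tnc and 2 for Vcan in WT, and 13 for Thbs4 and 12 for Sparc on day 0. In WT, 1 member was called with only the groups compared, and leaving out 1 library gave 0 to 4. These fits called 2102 genes and 527 to 3005 genes in that order, against 1880 as reported. In Cthrc1-/- mice the count between days was 5 with DESeq2, 2 with total-count scaling, 2 with limma at either pseudocount and 1 (Fn1) with the replicate block. These called 1409, 747, 775 (pseudocount 1), 773 (pseudocount 0.1) and 291 of 14313 genes against 209 as reported. Without 1 library the count was 0 to 3, in fits that called 5 to 911 genes. The day 0 genotype count was 0 without a filter, 0 with filterByExpr and 0 with only the groups compared. These called 275 of 34303, 424 of 22975 and 19 of 14313 genes, against 827 of 14313 as reported. Without 1 library the count was 0 to 2, in fits that called 18 to 2146 genes. On day 7 and for the interaction the member count was 0 under every alternative run. The interaction uses all 4 groups and was not refitted on fewer. With total-count scaling the median log2 change of all genes between days was 0.196 in WT and 0.158 in Cthrc1-/- mice, against -0.002 and -0.013 as reported. The share of calls that were higher went from 46% to 75.5% in WT and from 58.9% to 86.9% in Cthrc1-/- mice.

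Same-numbered replicates did not deviate together in every pair: r for replicates 1, 2 and 3 was 0.0869, 0.0232 and 0.0743 in WT and -0.0646, -0.124 and 0.426 in Cthrc1-/- mice between days, 0.054, -0.00981 and -0.0316 between genotypes on day 0, and -0.0499, -0.232 and 0.139 on day 7. The numbers were therefore not taken to pair the samples. With the replicate block Tnc and Vcan were called in WT, and Fn1 (-1.65), Sparc and Thbs4 on day 0. Postn on day 7 was -0.02 with that block, and the Cthrc1 genotype difference on day 7 was not called (edgeR adjusted p = 0.0512).

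Values that crossed 0 were the following. Thbs4 between days in WT was 0.04 with DESeq2 and with its size factors in edgeR, 0.19 with total-count scaling, 0.02 without a filter and with filterByExpr, and 0.33 and 0.35 with limma at pseudocounts 1 and 0.1. Spp1 in the interaction was 0.17 and 0.22 with limma at those pseudocounts, and Cthrc1 between days in Cthrc1-/- mice was 0.00 with limma at 0.1. Leaving out each library gave Thbs1 -1.25 to 1.65 and Thbs4 -0.38 to 0.44 between days in WT, Cthrc1 -1.66 to 5.23 between days in Cthrc1-/- mice, and Tnc -0.03 to 0.80 on day 0. On day 7 it gave Postn -0.28 to 0.50, Thbs1 -2.89 to 0.10 and Spp1 -1.52 to 0.59. In the interaction it gave Thbs1 -2.58 to 0.36, Spp1 -0.99 to 1.06, Vcan -0.53 to 0.07 and Cthrc1 -3.47 to 3.42. Per Cthrc1 it gave Spp1 -0.48 to 1.21 and Vcan -0.20 to 0.28. The cause of these changes was not tested. Cthrc1 counts near 0 in Cthrc1-/- mice, and 3 libraries a group, limit what could be seen.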
